A study of Mus musculus with 6 samples.

Results

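The signal recognition particle (SRP) and its receptor were examined through the transcripts of 7 protein subunits: Srp14, Srp9, Srp19, Srp68, Srp72, Srpr and Srprb. They were taken by gene symbol from the 23284 symbols of the count tables, and all 7 had enough reads to be tested. The set was picked because Srp14 was higher after knockdown of Paupar, so the Srp14 values below are a description and carry no test. The other subunits were included for their function, although earlier results of these data were known by then. The question was whether they moved with Srp14, Srp9 above all.

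The cells were MIN6, a mouse insulinoma line that serves as a beta cell model. Of 6 RNA-seq libraries, 3 came from cells that received a control antisense oligonucleotide (control KD) and 3 from cells that received one directed at Paupar (Paupar KD), a long noncoding RNA made beside the Pax6 gene. No other agent, genotype, dose or time is given in the labels, nor whether each replicate was its own culture, so a p-value speaks only to how these libraries scattered, possibly for technical reasons. No symbol matched Paupar itself, so the knockdown was not checked here. Totals ran from 16973622 to 28693863 reads, and 2 of the 3 Paupar KD libraries were below every control, which began at 22463557. The controls resembled each other closely (Pearson r of log2 CPM across genes, 0.997 to 0.998) and the Paupar KD libraries less (0.976 to 0.991), replicate 1 standing farthest from the rest. Here CPM is the count scaled to a common library total, and r is across genes, which are not independent replicates. The 8 beta cell markers (Ins1, Ins2, Iapp, Pdx1, Nkx6-1, Mafa, Slc2a2 and Slc30a8) were all present, summing to 29999 to 34102 CPM in control KD and 35558 to 53916 CPM in Paupar KD. Ins1, Ins2 and Iapp make up most of this sum. Slc30a8 had 464, 487 and 464 CPM in the controls and 425, 381 and 354 CPM in Paupar KD, lower with no overlap, and did not pass the test (edgeR adjusted p = 0.211). Slc2a2 had 317 ± 6.06 and 263 ± 45.5 CPM (SD, n = 3), with overlapping groups. Summed markers of exocrine and duct, mesenchymal, endothelial, and delta and PP cells stayed below 2.5 CPM in every library. The alpha cell hormone gene Gcg was expressed, and of the immune markers Ptprc was at 0 and Cd68 had 2.46 ± 0.02 CPM in the controls and 1.10 ± 0.35 CPM after Paupar knockdown (SD, n = 3). The part of these marker differences in the results below was not tested. In bulk RNA, fewer cells of a type and less RNA per cell cannot be told apart.

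SRP is the ribonucleoprotein that recognises the signal sequence of a secretory or membrane protein as it leaves the ribosome and brings the ribosome to the endoplasmic reticulum (ER). It is built on 7SL RNA. The SRP9 and SRP14 proteins bind together at its Alu domain, which slows translation, while SRP19, SRP54 and the SRP68/SRP72 pair form the S domain, in which SRP54 holds the signal sequence. At the ER the particle meets its receptor, whose alpha subunit (Srpr) is held in the membrane by the GTPase beta subunit (Srprb), and the nascent chain passes to the Sec61 channel. In beta cells insulin and the other granule proteins enter the secretory route at this step.

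Both transcripts of the Alu domain were higher in every Paupar KD library than in any control. Srp14 stood at 61.0, 57.1 and 54.9 CPM in the 3 controls and at 152, 124 and 108 CPM in Paupar KD replicates 1 to 3. This was 57.7 ± 3.08 against 128 ± 22.5 CPM (SD, n = 3 per group), 2.22 times the control level. The raw reads show the same separation before any scaling, with 1340 to 1573 reads in the controls and 2510 to 2580 in the Paupar KD libraries.

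Srp9, whose protein forms a heterodimer with SRP14, was at 58.9, 55.0 and 54.1 CPM in the controls and at 104, 89.0 and 78.5 CPM in Paupar KD replicates 1 to 3. The groups did not overlap, and the library highest for Srp14, Paupar KD replicate 1, was also the highest for Srp9. Mean levels were 56.0 ± 2.52 and 90.5 ± 12.9 CPM (SD, n = 3), 1.62 times the control level. The log2 fold change was 0.69 ± 0.12 (SE) with a 95% interval of 0.43 to 0.96. Over all 13039 tested genes this did not pass (edgeR adjusted p = 0.0743), and Srp9 ranked 53 by p. The call turned on single libraries: the edgeR adjusted p was 0.0173 without Paupar KD replicate 1, 0.00622 without Paupar KD replicate 3 and 0.493 without control KD replicate 2, with log2 fold changes of 0.57 to 0.79 whichever library was left out. Leaving out Paupar KD replicate 1, 0.934% of all genes were called higher, and leaving out replicate 3 of that group, 4.65%. DESeq2, an alternative test, called Srp9 higher (DESeq2 adjusted p = 9.78e-05), as it did 2.06% of all genes.

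**Figure D1:**
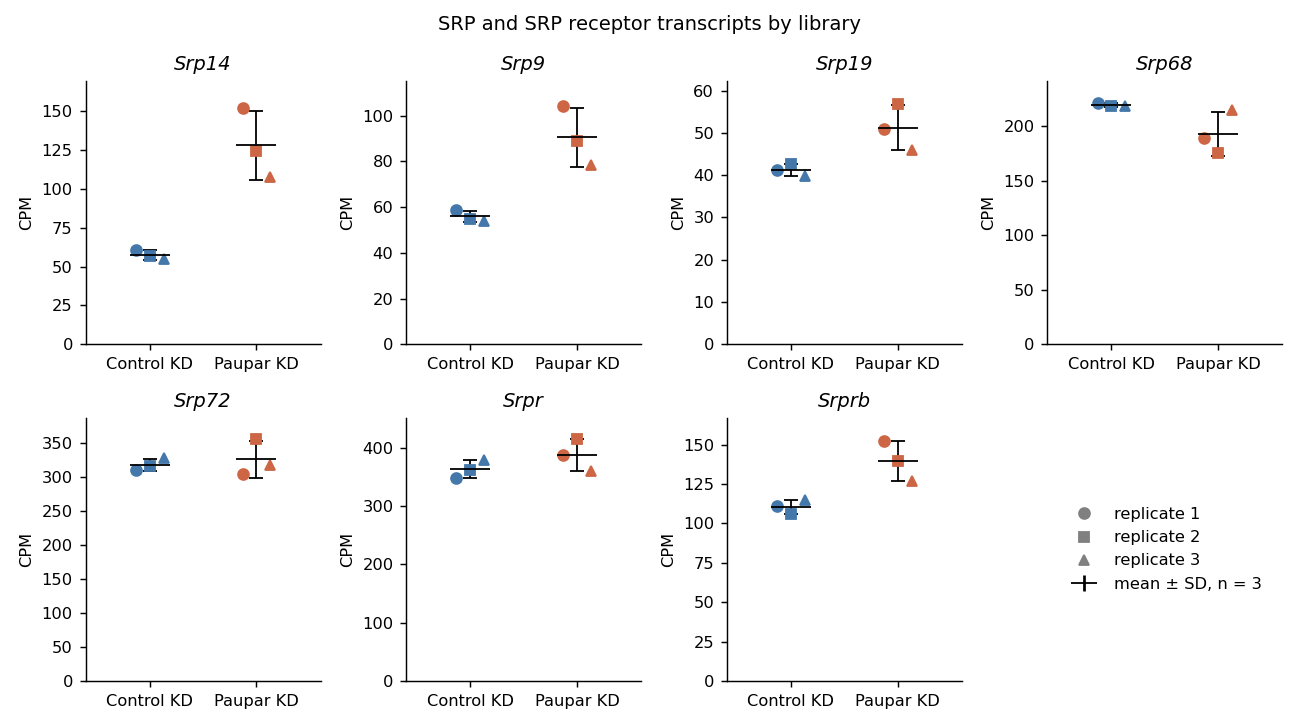
Levels of the 7 transcripts in CPM (vertical axes, each starting at 0) in the 3 control KD and 3 Paupar KD libraries; points are libraries, with mean and SD. Srp14 and Srp9 lie above every control in all 3 Paupar KD libraries, while Srp72 and Srpr overlap.

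The reads of the 2 Alu-domain transcripts were also set against each other within each library. The controls held 1.04, 1.04 and 1.01 reads of Srp14 per read of Srp9, and Paupar KD replicates 1 to 3 held 1.46, 1.40 and 1.37. Since both genes are read in the same library, this ratio does not depend on the scaling between libraries. The 95% counting intervals (Clopper-Pearson, on the share of Srp14 in the reads of the pair) reached from 0.945 to 1.12 over the controls and from 1.29 to 1.55 over Paupar KD. These intervals cover counting error only. The SD between replicates was 0.013 in control KD and 0.046 in Paupar KD. The mean ratio was 1.37 times higher in Paupar KD, which is a description only, because the pair was chosen on Srp14.

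**Figure D2:**
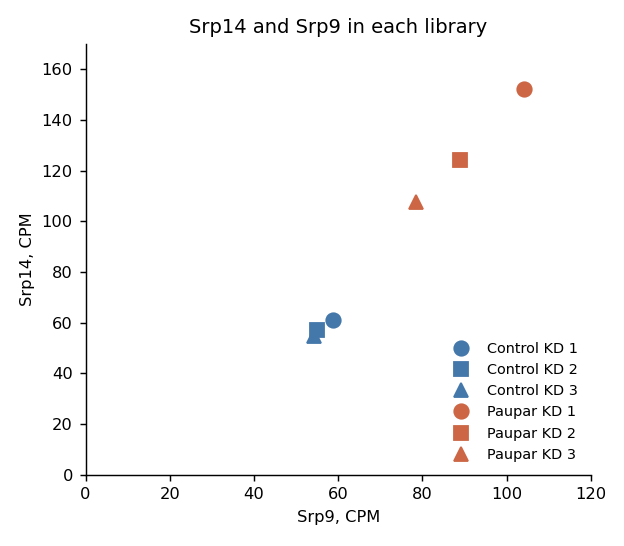
Level of Srp14 (vertical axis, CPM) against Srp9 (horizontal axis, CPM), 1 point per library. The 3 controls cluster near 57 CPM on the vertical axis; the Paupar KD libraries lie above and to the right, with replicate 1 at 152 and replicate 3 at 108 CPM.

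Among the 8270 other tested genes with a mean of at least 20 CPM, Srp9 was the gene second most like Srp14 across the 6 libraries, after Cdc42se2 (Pearson r of log2 CPM 0.996 and 0.997). The next were Ybx1 (0.995), which encodes a Y-box RNA-binding protein and Unc119b (0.994), a lipid-binding trafficking factor. For Srp9 the closest were Ybx1 (0.999), Manf (0.996), a secreted ER protein, Srp14 (0.996), Heatr2 (0.996) and Adprh (0.995). Ybx1 had 259.9 ± 8.16 CPM in the controls and 429.97 ± 64.2 CPM after Paupar knockdown. These r values are descriptions over 6 libraries that fall into 2 groups, so a gene that separates the groups scores high. Of the other subunits Srprb came nearest to Srp14 (0.959, rank 132) and Srp19 followed (0.881, rank 602), while Srpr (0.584), Srp72 (0.107) and Srp68 (-0.80) were unlike it.

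The starts of both genes were compared, since their transcripts were high in the same libraries, with Srpr beside them, whose levels overlapped between groups. The windows run from 100 bases before to 50 bases after the RefSeq start (GRCm38.p6). Windows of 5 of the 7 members were searched, as Srp19 was left out of the search and Srp68 was not matched in the RefSeq promoter table. Capitals mark the motifs searched on both strands: the ETS factor motif CGGAAGT, the CCAAT box, the GC box GGGCGG, and TGACG, which is part of a cAMP response element.
Srp14, chr2:118479647-118479796, minus strand: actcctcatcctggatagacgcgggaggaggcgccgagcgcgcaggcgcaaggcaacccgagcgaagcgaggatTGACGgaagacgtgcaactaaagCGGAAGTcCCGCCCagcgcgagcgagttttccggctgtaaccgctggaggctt
Srp9, chr1:182124637-182124786, plus strand: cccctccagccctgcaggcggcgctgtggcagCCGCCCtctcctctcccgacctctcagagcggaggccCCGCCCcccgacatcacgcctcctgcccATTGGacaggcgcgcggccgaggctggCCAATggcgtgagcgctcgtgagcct
Srpr, chr9:35211103-35211252, plus strand: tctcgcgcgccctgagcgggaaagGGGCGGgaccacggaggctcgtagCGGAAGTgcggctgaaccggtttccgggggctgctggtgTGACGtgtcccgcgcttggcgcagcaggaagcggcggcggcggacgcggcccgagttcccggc

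In Srp14, with the start counted as 1, TGACG began at -26, CGGAAGT at -3 and CCGCCC, the GC box on the other strand, at 6. Srpr held the same 3 motifs at other places, GGGCGG at -76, CGGAAGT at -52 and TGACG at -13. Srp9 shared only the GC box with Srp14, as CCGCCC at -68 and -31, and had CCAAT in both orientations, ATTGG at -3 and CCAAT at 25. No match overlapped another. Of all 32851 RefSeq promoter windows of this length, 4.93% held CGGAAGT, 13.9% TGACG, 23.4% CCAAT and 28.8% GGGCGG. The windows of Srp72 and Srprb held none of the 4 motifs. Whether any motif bears on the change of a transcript was not tested. A match describes letters in the window and shows no binding.

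Srp14 lies on the minus strand of chromosome 2 (mm9, 118301586 to 118305447) and Srp9 on the plus strand of chromosome 1 (184054868 to 184062538). The coding sequence of Srp14 spans 330 bases, for 110 residues, and that of Srp9 258 bases, for 86 residues. The nearest gene with counts is Eif2ak4, which encodes the amino acid sensing kinase GCN2 and ends 615 bases from the end of Srp14 on the opposite strand. Eif2ak4 was at 37.7, 34.2 and 35.4 CPM in the controls and 27.4, 31.7 and 37.6 CPM in Paupar KD replicates 1 to 3, lowest where Srp14 was highest (edgeR adjusted p = 0.552). On the other side Bmf, a pro-apoptotic BCL2 family gene 49045 bases away, was at 4.99 ± 0.37 and 6.27 ± 1.20 CPM (edgeR adjusted p = 0.348). Neither neighbour passed the test, and their groups overlapped. No second place in the mm9 assembly matched the Srp14 transcript at 95% identity over 100 bases or more. Srp9 had 1 such place (98.7% over 745 bases, annotated as Gm13736, which has no row in the counts), so reads of Srp9 could be lost to or gained from that copy.

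No S-domain subunit passed the test, and their values are given in turn. Srp19 (chromosome 18, mm9, 34490501 to 34496253), which binds 7SL RNA and helps to place SRP54, was at 41.3, 42.7 and 39.7 CPM in control KD and at 50.9, 56.8 and 46.1 CPM in Paupar KD replicates 1 to 3. All Paupar KD libraries lay above the controls, with replicate 2 the highest, unlike Srp14 and Srp9. The level was 1.24 times that of control (log2 fold change 0.31 ± 0.10 SE, 95% interval 0.08 to 0.55) and did not pass (edgeR adjusted p = 0.206).

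Srp68 (chromosome 11, mm9, 116106480 to 116135531) was the only one of the 7 with a lower mean in Paupar KD. It was at 221, 218 and 218 CPM in the controls and at 189, 175 and 214 CPM in Paupar KD replicates 1 to 3. The controls were nearly alike (219 ± 1.63 CPM, SD, n = 3), and Paupar KD replicate 3 lay just under them. At 0.880 of the control level the log2 fold change was -0.18 ± 0.10 (SE; 95% interval -0.40 to 0.04; edgeR adjusted p = 0.340).

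Srp72 (chromosome 5, mm9, 77403708 to 77428962), whose protein pairs with SRP68, was at 310.3, 315 and 327 CPM in the controls and at 303, 355 and 317 CPM in Paupar KD replicates 1 to 3. The groups overlapped, and the highest and the lowest value were both Paupar KD libraries. The log2 fold change of 0.03 had a 95% interval of -0.17 to 0.24 (edgeR adjusted p = 0.865), and without Paupar KD replicate 2 it was -0.04. The intervals of Srp68 and Srp72 lie wholly below that of Srp9.

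SRP54, the GTPase that holds the signal sequence, is encoded in mouse by near-identical copies. Srp54a had 10.3 ± 1.18 and 12.9 ± 1.01 CPM in control KD and Paupar KD, and Srp54c at 18.98 ± 2.19 and 22.2 ± 3.01 CPM (SD, n = 3; edgeR adjusted p = 0.264 and 0.407), while Srp54b had 0 reads in all libraries. The copies match at 100% identity over stretches of up to 1355 bases, so the division of reads among them is uncertain and a row at 0 does not show that Srp54b is silent. Summed, the 3 genes stood at 28.9, 30.9 and 28.2 CPM in the controls and at 35.1, 39.2 and 31.2 CPM in Paupar KD replicates 1 to 3. Like Srp19, the sum was highest in Paupar KD replicate 2. Symbols for the 7SL RNA were not matched, so the RNA core of the particle was not analysed here.

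Neither receptor subunit passed the test. Srpr, the alpha subunit, was at 349, 363 and 379 CPM in control KD and at 388, 415 and 360.3 CPM in Paupar KD replicates 1 to 3. Its groups overlapped, and the log2 fold change of 0.09 had a 95% interval of -0.11 to 0.30 (edgeR adjusted p = 0.605). Srprb, the membrane-anchored beta subunit, was at 111, 106 and 115 CPM in control KD and at 152, 139.6 and 127 CPM in Paupar KD replicates 1 to 3. These did not overlap, and as for Srp14 and Srp9 replicate 1 was the highest. Srprb stood at 1.26 times its control level (log2 fold change 0.33 ± 0.09 SE, 95% interval 0.12 to 0.55) without passing (edgeR adjusted p = 0.168). Without Paupar KD replicate 3, Srp19 and Srprb were also called higher (edgeR adjusted p = 0.0394 and 0.0319), in a fit that called 4.65% of all genes higher.

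In the GENCODE M1 annotation Srpr (chromosome 9, 35007760 to 35055558) overlaps Foxred1 and Fam118b, and Srprb (chromosome 9, 103090363 to 103104467) overlaps the transferrin gene Trf. With the strand setting not given, reads of these genes in shared parts cannot be told apart. Trf was at 1.01 ± 0.42 and 1.52 ± 0.41 CPM, far under Srprb, and Foxred1 at 39.4 ± 0.62 and 36.6 ± 2.22 CPM. The level of Fam118b is not given here. A copy of Srpr with 97.3% identity over 2241 bases lies where Gm6733 and Zzef1 are annotated. Of these only Zzef1 has a row in the counts, and its level is not given here. Reads of Srpr could be lost to or gained from that copy. Srprb also had 1 copy, with 96.7% identity over 331 bases, where no gene is annotated.

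**Figure D3:**
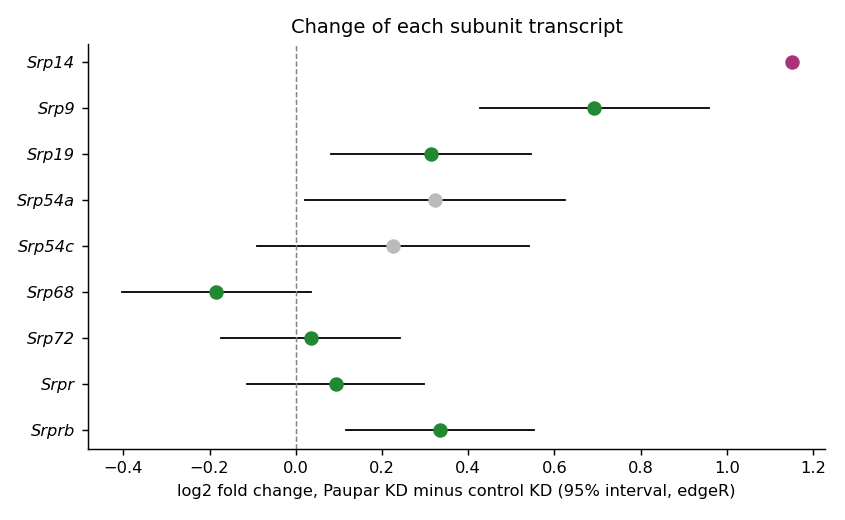
Log2 fold change (horizontal axis, Paupar KD minus control KD) of the 7 subunits and 2 SRP54 genes (grey) with 95% intervals from edgeR; Srp14 is drawn without an interval because it was chosen on this value. Srp9 at 0.69 lies nearest to Srp14 at 1.15, and Srp68 at -0.18 is on the other side of 0.

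Counted together, 1 of the 7 subunits was called higher, Srp14, which its selection fixes, and 0 were called lower (edgeR adjusted p under 0.05), against 0.0383% of tested genes called higher and 0.00767% called lower. Of the other 6, 3 were higher at an unadjusted p under 0.05 (Srp9, Srp19 and Srprb) and 0 lower, against 9.63% and 8.11% of all genes. The groups did not overlap for those same 3 and, in the lower direction, for Srp68, against 13.7% of all genes higher and 13.3% lower. The median log2 fold change of the 6 was 0.20, with 0.01 over all tested genes. DESeq2 called 2 of the 7 higher, Srp14 and Srp9, and 0 lower, against 2.06% and 1.74% of all genes.

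Ratios of reads within a library show how the partners shifted against each other. Srp9 reads per Srp68 read were 0.266, 0.252 and 0.248 in the controls and 0.551, 0.508 and 0.366 in Paupar KD replicates 1 to 3, 1.86 times higher on average. Against Srp72 the ratio of Srp9 was 1.59 times higher, against Srpr 1.51 times, against Srp19 1.30 times and against Srprb 1.28 times. In each of these 5 ratios every Paupar KD library exceeded every control. All 5 share Srp9 as numerator, so they are not independent of each other or of its own separation. Within the receptor, Srpr reads per Srprb read were 3.15, 3.41 and 3.30 in the controls and 2.55, 2.97 and 2.85 in Paupar KD replicates 1 to 3, again apart, at 0.848 of the control ratio. Srp68 reads per Srp72 read were 0.712, 0.692 and 0.668 against 0.623, 0.493 and 0.676, which overlapped. The first 6 ratios reached p = 0.10 in a two-sided exact permutation test over libraries, the smallest that 3 against 3 allow, and the last p = 0.20. Adjusted over these 7 ratios the values were 0.117 and 0.20, so none passed, as the design could not let one pass.

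**Figure D4:**
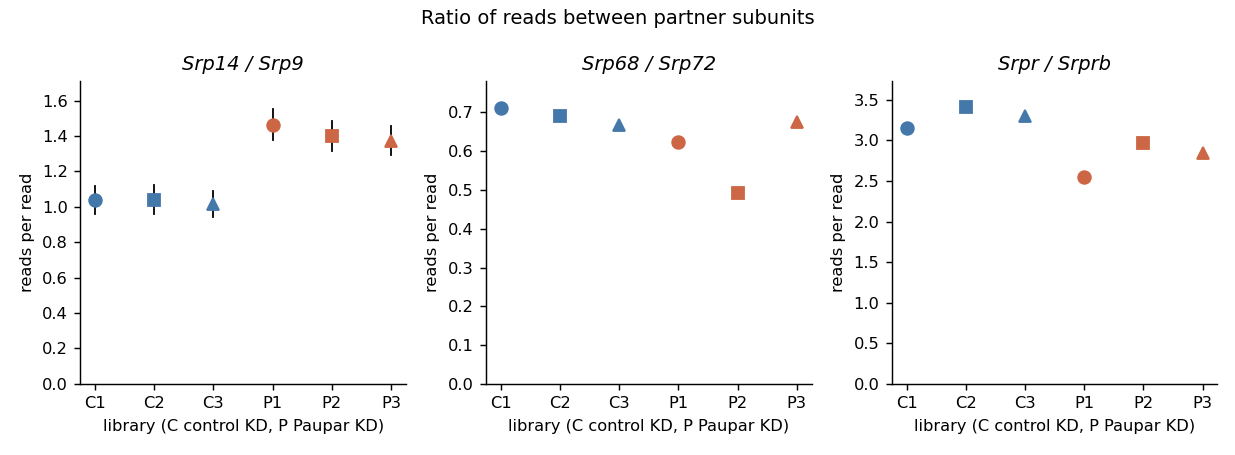
Reads of 1 subunit per read of its partner (vertical axes, from 0) in each library for Srp14/Srp9, Srp68/Srp72 and Srpr/Srprb; lines are 95% counting intervals for Srp14/Srp9. The Srp14/Srp9 ratio steps from 1.01 to 1.04 in control KD to 1.37 to 1.46 in Paupar KD, while Srp68/Srp72 overlaps.

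Per length, the levels of the 7 subunit transcripts were unequal in control KD. As CPM per kilobase of annotated exon, Srpr was highest at 108 ± 4.54 (SD, n = 3), followed by Srp68 at 80.1 ± 0.60, Srp72 at 55.5 ± 1.53, Srp14 at 48.3 ± 2.58, Srp9 at 40.6 ± 1.83, Srprb at 26.2 ± 1.05 and Srp19 at 11.4 ± 0.41. The ranges of neighbours in this order did not overlap. With the length of the longest transcript, Srp68 (86.8 ± 0.65) and Srp72 (87.6 ± 2.41) were within their spread, and the ratio of Srp14 to Srp9 was 1.76 ± 0.02 in place of 1.19 ± 0.02. Srp19 was at 0.280 ± 0.014 of Srp9, or 0.306 ± 0.016 with the longest transcript. Its longest protein-coding transcript has 956 bases, against 3295 for its longest transcript of any kind. Both choices may therefore understate Srp19, and its place at the bottom of the 7 depends on the length used. Outside the 7, Srp54a at 4.11 ± 0.47 and Srp54c at 6.53 ± 0.75 CPM per kilobase of exon were lower. The division of reads among the SRP54 copies is uncertain. The transcripts present in MIN6 cells were not measured, so the order rests on the annotation.

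No other gene of protein entry into the ER was called, and most log2 fold changes were positive. Of 52 tested genes in 7 lists, 0 passed over all genes (edgeR), 16 were higher and 1 lower at an unadjusted p under 0.05, and 41 had positive log2 fold changes, with a median of 0.16. Over all tested genes, 9.63% were higher and 8.11% lower at that p, 51.0% had positive log2 fold changes and the median was 0.01. DESeq2 called 3 of the 52 higher, all of the oligosaccharyltransferase, where it called 2.06% of all genes higher.

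At the translocon, the channel and its helpers, 10 of 13 genes had positive log2 fold changes and 0 were called (median 0.12). Sec61b, the channel's beta subunit, was at 67.7 ± 2.33 and 92.0 ± 15.8 CPM (edgeR adjusted p = 0.178). Hspa5, the ER chaperone BiP, was at 2603 ± 146 and 3094 ± 221 CPM (edgeR adjusted p = 0.251). Their groups did not overlap, as held for 4 of the 13 in the higher direction, against 13.7% of all genes.

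For signal peptidase, which removes the signal sequence, 4 of 5 genes were positive and 0 were called (median 0.24). Spcs1 was at 120, 116 and 112 CPM in the controls and at 138, 137 and 137 CPM after Paupar knockdown (edgeR adjusted p = 0.196), a difference alike in the 3 Paupar KD libraries. Spcs3 was at 294 ± 17.7 and 288 ± 30.4 CPM. For the oligosaccharyltransferase, which adds N-glycans to entering chains, 8 of 11 were positive and 0 were called (median 0.29). Krtcap2 was at 86.2 ± 5.27 and 113.5 ± 7.60 CPM (edgeR adjusted p = 0.134) and Rpn2 at 1669 ± 54.5 and 1627 ± 189 CPM.

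Genes of tail-anchored protein insertion, of the ER membrane complex and of nascent chain factors were measured beside SRP. Of 7 genes of tail-anchored protein insertion 6 were positive and 0 called (median 0.17), with Wrb, a receptor subunit of that route, at 38.9 ± 1.46 and 48.8 ± 8.15 CPM (edgeR adjusted p = 0.253) and Bag6 at 308 ± 18.8 and 311 ± 16.7 CPM. Of 9 tested ER membrane complex genes 8 were positive and 0 called (median 0.16); the exception, Mmgt1, was at 159 ± 8.01 and 127 ± 23.3 CPM (edgeR adjusted p = 0.273). Factors that meet the nascent chain at the ribosome, competitors of SRP among them, had the smallest median, 0.07, with 3 of 5 positive and 0 called. Naca, of the nascent polypeptide-associated complex, was at 43.5 ± 4.26 and 50.2 ± 6.71 CPM (edgeR adjusted p = 0.406), and Hspa14 at 125 ± 2.44 and 131 ± 9.67 CPM. Without Paupar KD replicate 3, edgeR called 4 translocon, 2 signal peptidase and 4 oligosaccharyltransferase genes higher, and 1 translocon and 1 ER membrane complex gene lower, in a fit that called 4.65% of all genes higher and 5.67% lower.

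**Figure D5:**
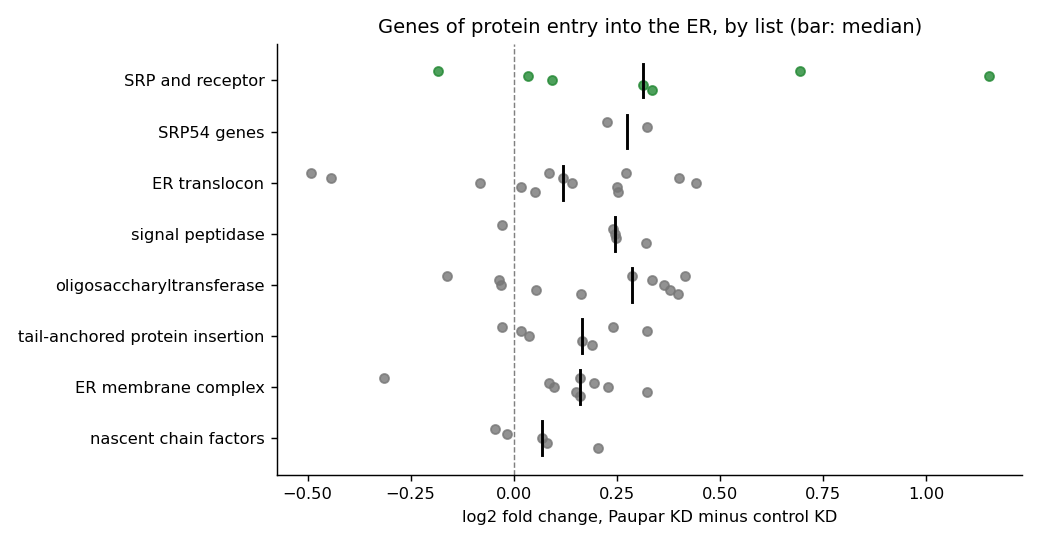
Log2 fold changes (horizontal axis, Paupar KD minus control KD) of the tested genes of each list, 1 point per gene, with the median as a bar; the top row holds the 7 SRP and receptor subunits. The median of the top row is 0.31 with Srp14, which was picked because it rose, and 0.20 without it. The medians of the other lists lie between 0.07 and 0.29, and no gene of those lists reaches the 0.69 of Srp9.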

How the data were processed

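The build was mm9 and the tools named were HISAT2, HTSeq, DESeq2 and CASAVA 1.8.2, per the submitters' processing notes. What each tool did, the strand setting and the gene models counted were not given in the sources used here. The authors deposited raw counts of reads per gene symbol, 1 table per library.

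Counts were fitted with edgeR 4.0.16 in R 4.3.3 (filterByExpr, minimum count 10; TMM; robust quasi-likelihood test; Benjamini-Hochberg over all 13039 tested genes; threshold 0.05). CPM uses the TMM factors, and the SE is the log2 fold change divided by the root of F. limma 3.58.1 and DESeq2 1.42.0 served as alternatives. The fit was also run on simulated data with the same spread in both groups, unlike these libraries, and no statement here rests on it. Positions and lengths are from GENCODE M1 (NCBIM37, which is mm9), copies from BLAST 2.17.0. Named genes are the 7 members, the tested SRP54 genes, the neighbours of Srp14, the 5 genes most like Srp14 and Srp9, and from each list those called or else the one with the smallest p and the one with the highest level. The values of 2 genes, a marker and a gene most like Srp14, are not reported here. Foxred1 and Trf were added once their values had been seen. List entries matched 53 of 57 symbols, 2 of them through RefSeq synonyms. Members and lists were chosen with earlier results of these data known. Replicate numbers did not pair the libraries. No pair of replicates agreed within sampling noise (chi-square per gene 3.46 to 8.39 between controls and 24.7 to 81.9 between Paupar KD libraries).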

Additional observations from a re-analysis of the deposited data

How the results depend on the processing

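The direction of Srp14, Srp9, Srp19, Srp68, Srpr and Srprb held in all 16 alternatives run for them. That of Srp72 turned once, to -0.040 without Paupar KD replicate 2, with up to 0.077 when another library was left out. The reported calls were 1 subunit and 5 genes higher, and 1 gene lower. Upper-quartile factors gave 0 subunits higher, 3 genes higher and 0 lower. Keeping genes of low count gave 2, 36 and 24 in the same order, a floor of 1 CPM on the mean gave 0, 2 and 0, DESeq2 gave 2, 268 and 227, and a threshold of 0.01 gave 0, 1 and 0. Limma-voom with sample quality weights, chosen after seeing the data, gave 4, 745 and 950, with 1 subunit lower (Srp68). A replicate block gave 0, 1 and 0; same-numbered libraries deviated together at r = 0.11, 0.03 and 0.03, so the numbers did not pair the libraries. Leave-one-out fits ranged from 0 to 4 subunits higher, 0 to 611 genes higher and 0 to 745 lower. All 3 counts were 0 without any single control and without Paupar KD replicate 2. They were 2, 123 and 128 on leaving out Paupar KD replicate 1, and 4, 611 and 745 on leaving out Paupar KD replicate 3; the cause was not tested. Srp9 was called in 5 of its 16 alternatives. Srp14 was called in 9, which is a description only, because it was picked on these libraries. The counts of subunits higher above include Srp14. Counting error is small for Srp14 and Srp9, with 1291 to 2580 reads per library, and larger for Srp54a, with 221 to 284.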
